A study of Caenorhabditis elegans with 63 samples.

Results

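Adult worms of 2 mutants of drsh-1, the Caenorhabditis elegans gene for Drosha, were set directly against each other: drsh-1(cdb328) over drsh-1(cdb330). The comparison used 6 of the 63 small RNA libraries of the series, all prepared with a NEBNext kit and chosen by their labels alone: 3 of cdb328 Adults and 3 of cdb330 Adults. Wild-type Adults (n = 3) stand beside them as the reference of both mutants, and the same contrast was taken from L4 larvae (n = 3 each) and from Adult libraries made with bias-minimized adaptors, which carry degenerate bases (n = 3 each). All worms grew at 20 °C, and RNA came from whole animals. The series describes its drsh-1 strains as carrying deletions, but the labels do not say which bases cdb328 and cdb330 remove. The reads cover miRNAs and not drsh-1 mRNA, so the mutation itself could not be checked in these libraries. Nothing in the labels says that replicates were separate cultures, so p-values measure the spread between these libraries, which may be technical.

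Drosha is the nuclear RNase III that releases a hairpin, the precursor miRNA, from the folded primary transcript. Dicer then cuts the hairpin into a duplex, of which usually a single strand, the 5p or the 3p arm, is kept by an Argonaute protein while the other decays. Mirtrons are an exception, since splicing makes their hairpins without Drosha. In the names used by the files a star marks 1 of the 2 arms, usually but not always the one with fewer reads.

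The table held 276 mature arms of 138 hairpins, and 254 arms had a read in at least 1 of the 6 libraries. The test took 215 arms; the other 61 had at most 8 reads in any library of either mutant. The 6 libraries held between 1891780 and 2425053 miRNA reads. They grouped by allele: across arms with a mean of at least 10 reads, on a log scale, the correlation of 2 libraries was 0.995 to 0.997 within an allele (6 pairs) and 0.958 to 0.963 between alleles (9 pairs). The 10 most abundant arms took 53.5% to 54.9% of miRNA reads in cdb328, 58.0% to 58.9% in cdb330 and 57.6% to 61.1% in wild type. Among 102 arms of at least 100 CPM (read counts scaled to library size, with TMM), the median coefficient of variation between replicates was 6.48% in cdb328 and 8.16% in cdb330.

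Between the 2 mutants, falls were deep and rises were shallow. With edgeR's quasi-likelihood test, p adjusted over all arms by Benjamini-Hochberg, 88 of 215 arms differed (40.9%): 51 were lower in cdb328 (23.7%) and 37 were higher (17.2%). At least 2-fold differences were found for 37 of the lower arms (17.2% of those tested) and 10 of the higher arms (4.65%). In each of the 88 arms the 3 cdb328 libraries lay entirely on one side of the 3 cdb330 libraries; over all tested arms, 68 lay entirely lower in cdb328 (31.6%) and 52 entirely higher (24.2%). The median log2 fold change of all tested arms was -0.07. Scaled on the 10 spike-in RNAs, which moved log2 fold changes by a median of -0.21, the split was 61 lower and 18 higher. Scaled on mirtron reads, which are nearly all miR-62-3p, the shift was -1.09, and 173 arms were lower and 1 was higher.

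**Figure D1:**
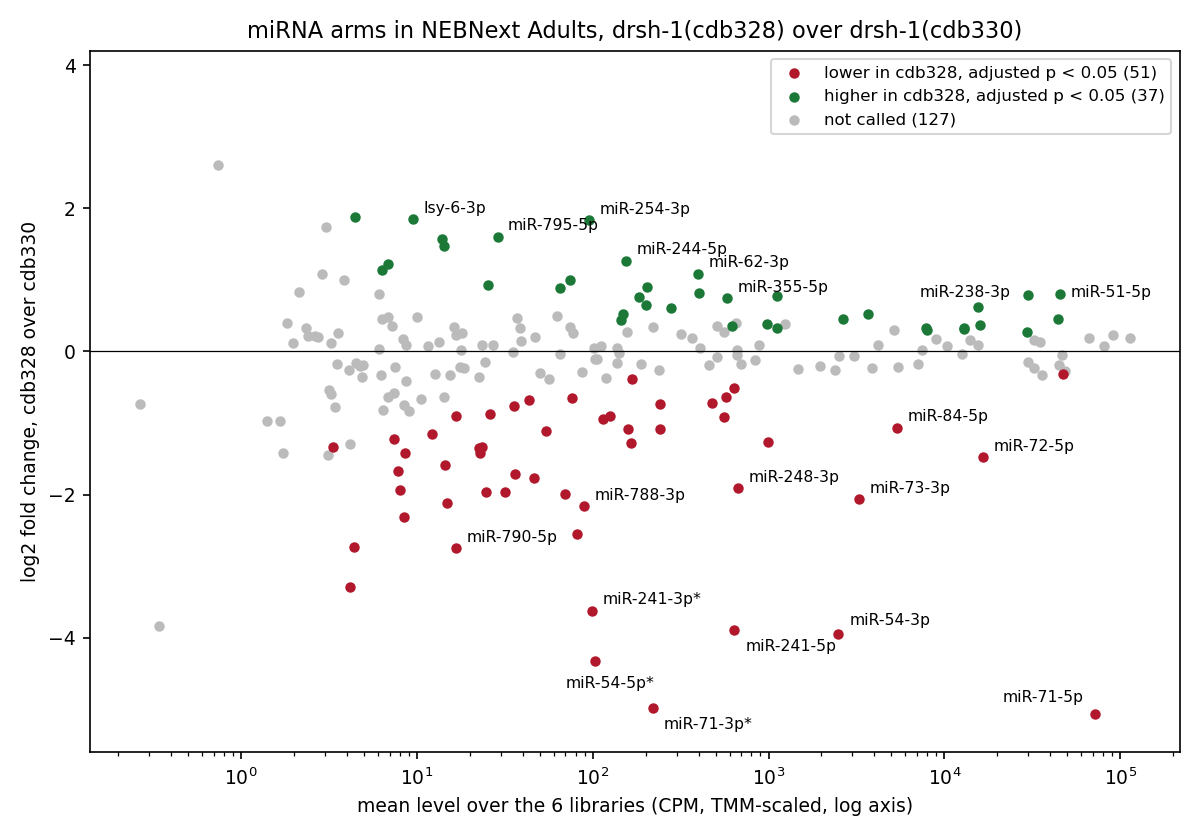
Log2 fold change of cdb328 over cdb330 (y) against the mean level over the 6 libraries in CPM (x, log axis), each point being 1 of 215 tested arms. Red points (51) were lower in cdb328 and green points (37) higher at an adjusted p under 0.05; the deepest falls, of miR-71, miR-54 and miR-241, lie below -3.5 while no called rise passes 2, with calls as on the TMM scale.

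miR-71-5p, a miRNA that extends lifespan and protects against stress in worms, set the mutants apart most. It stood at 3833, 4367 and 4196 CPM in cdb328, against 132990, 142640 and 140783 CPM in cdb330 and 187305, 152836 and 133975 CPM in wild type. The cdb328 libraries were far below all others, while cdb330 overlapped wild type. Its level was 33.6-fold lower in cdb328 than in cdb330 (log2 fold change -5.07 ± 0.15, SE, n = 3 each; adjusted p = 1.35e-18). As a share of all miRNA reads it was 0.366% ± 0.00953 (SD) in cdb328, 11.5% ± 0.147 in cdb330 and 13.0% ± 1.09 in wild type. Its partner strand miR-71-3p* had 12.5, 19.2 and 9.03 CPM in cdb328 and 370, 466 and 442 CPM in cdb330, a log2 fold change of -4.99 ± 0.19. The partner strand was also slightly lower in cdb330 than in wild type (-0.45, adjusted p = 0.0438). Both strands of the hairpin (WBcel235, I:9379927-9380020, minus strand, in an intron of ppfr-1) thus fell by nearly the same factor.

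The hairpin mir-54 belongs to the miR-51 family, whose members share a seed and act together in embryos. miR-54-3p had 294, 319 and 293 CPM in cdb328, against 4122, 4844 and 4937 CPM in cdb330, with 3960, 3796 and 3397 CPM in wild type. No library of cdb328 came near the cdb330 range, which lay above wild type in every library. The fall was 15.4-fold (-3.94 ± 0.13, adjusted p = 1.04e-17). miR-54-5p* had 8.55, 7.82 and 12.5 CPM in cdb328 and 205, 165 and 217 CPM in cdb330, a log2 fold change of -4.32 ± 0.20. The hairpin is at X:13144996-13145094 on the minus strand, inside an intron of F09A5.3, which runs the other way.

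miR-241-5p, of the let-7 family and needed for the timing of larval cell fates, had 70.7, 81.8 and 86.3 CPM in cdb328, against 1266, 1141 and 1153 CPM in cdb330. Wild type, at 1385, 1142 and 990 CPM, overlapped cdb330, and cdb328 stood apart from both. The fall was 14.9-fold (-3.90 ± 0.17, adjusted p = 2.48e-15), and miR-241-3p* fell by 3.62 on the log2 scale. miR-84-5p, another let-7 sister, had 3442, 3639 and 3335 CPM in cdb328 against 7155, 7515 and 7124 CPM in cdb330. It was lower in all 3 cdb328 libraries, but by a smaller factor (-1.07 ± 0.11, adjusted p = 9.36e-09), and miR-84-3p* fell by 1.71. The third sister, miR-48-5p, had 0.16 ± 0.10 (adjusted p = 0.222), and let-7-5p itself, which drives the larva-to-adult switch, had -0.18 ± 0.12 (adjusted p = 0.222).

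Both strands of mir-72 and mir-73, hairpins of 1 seed family on chromosomes II and X, fell together. miR-73-3p had 1202, 1286 and 1289 CPM in cdb328, against 4754, 5351 and 5663 CPM in cdb330. miR-72-5p had 8679, 9262 and 8314 CPM in cdb328, against 24534, 24520 and 23890 CPM in cdb330. In both arms the cdb330 libraries, like wild type, were well above all cdb328 libraries. The log2 fold changes were -2.06 ± 0.11 and -1.47 ± 0.09 (adjusted p = 1.00e-13 and 1.04e-12), and the rarer strands miR-73-5p* and miR-72-3p* had -2.55 ± 0.20 and -1.77 ± 0.20. The third hairpin of the family, mir-74, gave no call: miR-74-3p had 0.08 ± 0.16 and miR-74-5p* had -0.15 ± 0.18.

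Falls were also found outside these families. miR-248-3p had 245, 301 and 300 CPM in cdb328 and 1015, 1020 and 1147 CPM in cdb330 (-1.91 ± 0.14, adjusted p = 2.46e-11). miR-86-5p had 586, 606 and 567 CPM in cdb328 and 1412, 1508 and 1319 CPM in cdb330 (-1.27 ± 0.12, adjusted p = 2.27e-09). Neither overlapped between the mutants. Below 200 CPM in every library of both mutants, miR-788-3p (-2.16), miR-1817-5p (-2.0), miR-231-3p and miR-231-5p* (both -1.97) and miR-2210-3p (-2.11) fell. miR-790-5p rested on few reads: it had 3.42, 7.22 and 2.51 CPM in cdb328 (5 to 12 reads) and 35, 20.4 and 31.4 CPM in cdb330 (39 to 68 reads), a log2 fold change of -2.75 ± 0.36 (adjusted p = 7.51e-07). It was also lower in cdb330 than in wild type, which had 77.6, 45.3 and 77.4 CPM (-1.20, adjusted p = 0.00141).

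Among the rises, miR-254-3p had the largest fold change of arms above 10 CPM on average. Its hairpin lies in an intron of gcy-9, a guanylyl cyclase gene, on the same strand (X:11333531-11333630). It had 139, 161 and 148 CPM in cdb328, against 38.1, 49.7 and 37.3 CPM in cdb330 and 104, 58.8 and 63.6 CPM in wild type. The cdb328 libraries were highest, the cdb330 libraries lowest and wild type lay between, with no overlap. The rise was 3.58-fold (1.84 ± 0.22, adjusted p = 1.86e-07). lsy-6-3p, which sets the left-right difference of a pair of taste neurons, had 18.8, 15 and 11 CPM in cdb328 (22 to 33 reads) and 7.20, 2.09 and 2.99 CPM in cdb330 (4 to 14 reads). All 3 cdb328 libraries were higher (1.85 ± 0.36, adjusted p = 0.000184), though its mean over both mutants was under 10 CPM.

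miR-62-3p, a mirtron from an intron of ugt-50, had 501, 589 and 534 CPM in cdb328, against 255, 231 and 278 CPM in cdb330 and 147, 230 and 190 CPM in wild type. Every cdb328 library was above every other library (1.09 ± 0.14 over cdb330, adjusted p = 6.83e-07). On the spike-in scale its log2 fold change was 0.88. Smaller rises reached very abundant arms. miR-238-3p, from a gene whose loss shortens lifespan in worms, had 35932, 39555 and 38582 CPM in cdb328 and 20276, 20812 and 24960 CPM in cdb330 (0.79 ± 0.09, adjusted p = 1.41e-07). miR-51-5p had 49018, 62485 and 62178 CPM in cdb328 and 38833, 29984 and 31168 CPM in cdb330 (0.80 ± 0.15, adjusted p = 0.000109). Neither overlapped between the mutants. miR-64-5p (0.46 ± 0.10) was called on the TMM scale but not on the spike-in scale (0.25, adjusted p = 0.331), and miR-228-5p (0.30 ± 0.10) was likewise lost there (0.09, adjusted p = 0.760). Scaled on mirtron reads, the log2 fold changes of miR-76-3p, miR-137-3p, miR-51-5p, miR-238-3p, miR-64-5p and miR-228-5p were negative (-0.091 to -0.80). Other called rises were those of miR-795-5p (1.60), miR-1821-3p (1.57), miR-249-3p (1.47), miR-244-5p (1.27), miR-76-3p (1.00) and miR-137-3p (0.81).

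**Figure D2:**
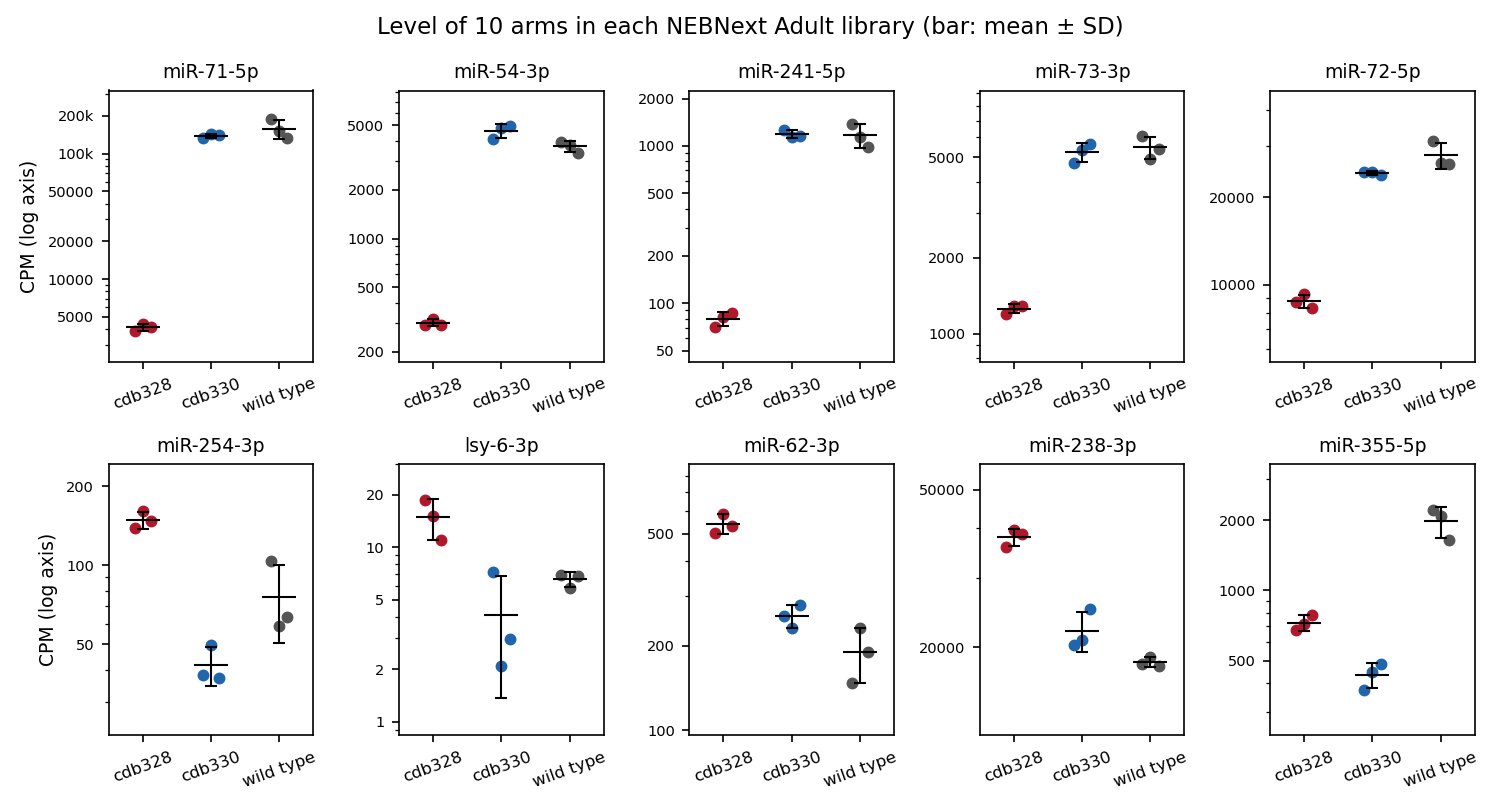
Level in CPM (y, log axis, its range differing between panels) of 10 arms in each NEBNext Adult library of cdb328 (red), cdb330 (blue) and wild type (grey); points are libraries, and bars give the mean and SD (n = 3). In the upper row cdb328 lies far below cdb330 and wild type; in the lower row cdb328 lies above cdb330 on the TMM scale plotted, and miR-355-5p is lower in both mutants than in wild type.

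The wild-type libraries place these differences. Over wild type, 106 arms differed in cdb328 (49.3%; 39 higher, 18.1%, and 67 lower, 31.2%) and 16 in cdb330 (7.44%; 6 higher, 2.79%, and 10 lower, 4.65%). Scaled on spike-ins, these were 23 higher and 70 lower for cdb328, and 3 higher and 9 lower for cdb330. Without the second cdb330 library, 10 arms differed between cdb330 and wild type. Both comparisons share the wild-type libraries, and each shares its mutant libraries with the direct contrast. Of the 88 arms that separated the mutants, the wild-type mean lay between the 2 mutant means in 41. The same count was not taken over all tested arms, so it only describes the called arms.

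For a few arms the wild-type level was far from both mutants. miR-355-5p had 675, 720 and 783 CPM in cdb328, 375, 446 and 481 CPM in cdb330 and 2211, 2080 and 1648 CPM in wild type. The 3 groups did not overlap, and cdb330 was lowest. It was higher in cdb328 than in cdb330 (0.74 ± 0.12, adjusted p = 2.43e-05), while its log2 fold change over wild type was -1.45 in cdb328 and -2.19 in cdb330. miR-77-5p* was lower than in wild type by about the same factor in each mutant (-1.46 in cdb328 and -1.49 in cdb330), and the direct contrast gave 0.03 ± 0.21. miR-253-3p had -0.74 in cdb328 and -1.13 in cdb330 over wild type, and 0.38 ± 0.21 (adjusted p = 0.132) between the mutants. miR-83-5p* had -0.86 and -0.95 over wild type, and 0.09 ± 0.18 between the mutants. miR-86-3p* had -1.28 and -0.92 over wild type, and -0.36 ± 0.21 between the mutants.

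Several well-known miRNAs gave no call between the mutants. lin-4-5p, the first timer of larval development, had 1916, 1916 and 1647 CPM in cdb328 and 2077, 2241 and 1995 CPM in cdb330 (-0.20 ± 0.10, adjusted p = 0.111). miR-1-3p, the muscle miRNA, had 0.19 ± 0.13, miR-60-3p of the intestine -0.25 ± 0.13 and miR-58a-3p, of the bantam-like family, 0.18 ± 0.14. miR-80-3p, also bantam-like, had 0.23 ± 0.10 (adjusted p = 0.0748), and it passed with total counts (0.32, adjusted p = 0.00382). It passed too with DESeq2 or its size factors, when fitted on the groups compared, and without the third cdb330 library. miR-1-3p likewise passed with total counts (0.29, adjusted p = 0.0123) and when fitted on the groups compared (0.22, adjusted p = 0.0403). miR-35-3p, of the family that embryos inside the adult carry, had 0.07 ± 0.17.

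Markers of cell types were summed to see whether the 2 sets of whole worms differed in make-up. The 3 markers of neurons (lsy-6, mir-124 and mir-791) summed to 20.1 to 30.8 CPM in cdb328 and 12 to 14.9 CPM in cdb330. Of their 4 tested arms 1 was called, lsy-6-3p, and miR-791-3p had no read in 1 cdb328 library. With both arms summed, mir-791 had a log2 fold change of -0.33 ± 0.54 (edgeR, adjusted p = 0.598). miR-124-3p had 9.12, 7.22 and 7.02 CPM in cdb328 and 3.6, 6.80 and 2.99 CPM in cdb330 (0.80 ± 0.40, adjusted p = 0.111). With the bias-minimized adaptors described further on it had 1763, 1471 and 1844 CPM in cdb328 and 704, 786 and 685 CPM in cdb330 and was higher (1.22 ± 0.13, adjusted p = 0.000454), and both neuronal arms tested there, lsy-6-3p and miR-124-3p, were called. The muscle marker mir-1 summed to 115368 to 129173 CPM in cdb328 and 96787 to 115785 CPM in cdb330, and the intestinal marker mir-60 to 2117 to 2299 CPM in cdb328 and 2275 to 3176 CPM in cdb330. The miR-35 family summed to 183050 to 193666 CPM in cdb328, 187863 to 207459 CPM in cdb330 and 191505 to 243738 CPM in wild type. Fewer cells of a type and less of a miRNA per cell cannot be told apart in whole worms, and the part of either in the results above was not tested.

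Seed families are set here beside all tested arms, of which 23.7% were lower in cdb328 and 17.2% higher, with a median log2 fold change of -0.07. The miR-72 family was lowest, with 4 of 6 arms lower (66.7%) and 0 higher (median -1.62). Of 12 arms of the let-7 family 4 were lower (33.3%) and 2 higher (16.7%; median -0.24), the lower arms being both strands of mir-241 and mir-84 and the higher arms both strands of mir-795. Of 11 tested arms of the miR-51 family 5 were lower (45.5%) and 1 higher (9.09%; median -0.17), with mir-54 far below the rest. Of 16 arms of the miR-35 family 3 were lower and 0 higher (median -0.18), namely miR-39-5p* and both strands of mir-42; the lower share of 18.8% is near that of all arms. Of 10 arms of the miR-64 family 4 were higher (40%) and 0 lower, with a median of 0.07 that turned to -0.14 on the spike-in scale and -1.02 on the mirtron scale. The miR-44 family had 2 higher and 2 lower of 7 tested arms (28.6% each; median 0.27, or -0.83 on the mirtron scale). The miR-238 family had 1 higher of 5 (20%) and 0 lower (median 0.45, or -0.64 on the mirtron scale). The bantam-like miR-58 family had 1 higher (12.5%) and 3 lower (37.5%) of 8 arms (median 0.00, or 0.08 with DESeq2's size factors). Of 13 tested arms of hairpins tied to ageing and stress 3 were higher and 3 lower (23.1% each, near the shares of all arms; median 0.27, or -0.83 on the mirtron scale). The lower arms were both strands of mir-71 and miR-246-5p*, and the higher arms were miR-238-3p, miR-228-5p and miR-246-3p, of which miR-246-3p (0.33) was lost on the spike-in scale (0.13) and without any of 4 libraries in turn (0.27 to 0.32).

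The 2 strands of a hairpin were then compared with each other. On the TMM scale, in 86 hairpins with both arms tested, both arms were lower in cdb328 in 10 (mir-42, mir-54, mir-71, mir-72, mir-73, mir-84, mir-231, mir-241, mir-788 and mir-4813), both were higher in 4 and the arms moved in opposite directions in 6 (mir-44, mir-45, mir-81, mir-87, mir-246 and mir-259). On the spike-in scale opposite calls were left at 2, mir-87 and mir-259, both arms were higher in 1 and both lower in 13, and on the mirtron scale no hairpin had a higher arm beside a lower one. Of 83 tested starred arms 23 were lower (27.7%) and 4 higher (4.82%), against 23.7% lower and 17.2% higher of all tested arms. Of 132 arms without a star 28 were lower (21.2%) and 33 higher (25%). The lower shares are both near that of all arms. With both arms summed, 64 of 129 hairpins differed (49.6%; 34 higher and 30 lower).

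The ratio of the rarer to the main arm, which needs no scaling between libraries, differed in 16 of 66 hairpins by limma (24.2%): the rarer arm's share was lower in cdb328 in 14 (21.2%) and higher in 2 (3.03%). The main arm was the one with more reads over the 18 NEBNext libraries of both stages; in 4 hairpins it carries the star, and in 2 others, mir-74 and mir-1829a, neither of them called, the arm taken as rarer had over 50% of reads on average in the 6 Adult libraries. At mir-259 the rarer arm, miR-259-3p*, took 29.1%, 32.0% and 28.6% of the hairpin's reads in cdb328, against 9.63%, 8.01% and 14.1% in cdb330 and 13.9%, 11.8% and 14.9% in wild type. The share was highest in cdb328, without overlap, and the arm ratio was 3.68-fold higher (log2 1.88 ± 0.24, adjusted p = 4.07e-07). The 2 arms moved apart, miR-259-3p* rising (0.93 ± 0.22) and miR-259-5p falling (-0.95 ± 0.14). At mir-240 the rarer arm took 14.3%, 15.3% and 19.4% in cdb328, against 32.0%, 33.4% and 26.6% in cdb330 and 36.6%, 35.6% and 32.5% in wild type. Here cdb328 was lowest (log2 -1.18 ± 0.20, adjusted p = 2.64e-05), with miR-240-5p* falling (-1.27 ± 0.16) beside an uncalled miR-240-3p.

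The other shifts concerned arms that are scarce in every library. miR-45-5p* made up 0.608%, 0.640% and 0.579% of its hairpin in cdb328, against 1.38%, 1.34% and 1.5% in cdb330. miR-44-5p* made up 0.818%, 1.10% and 1.24% in cdb328, against 3.52%, 1.81% and 2.93% in cdb330. Both shares were lower in each cdb328 library. The main arms miR-44-3p and miR-45-3p, which are alike in sequence, rose slightly on the TMM scale (0.31 and 0.33). Neither was called on the spike-in scale (0.11 and 0.12), nor without the first cdb330 library (0.26 and 0.27). miR-44-3p was lost without the second cdb328 library too. The sources used here do not say how reads shared by those main arms were divided. Either single value is therefore uncertain, and the results of mir-44 and mir-45 may not be independent. miR-87-5p* (-1.95 ± 0.37), miR-246-5p* (-1.79 ± 0.27), miR-52-3p* (-1.56 ± 0.30), miR-55-5p* (-1.29 ± 0.33) and miR-81-5p* (-1.22 ± 0.24) also had a lower log2 ratio to the main arm, and miR-86-3p* was the other arm whose share was higher (0.92 ± 0.22). In the bias-minimized Adults, where these ratios were not tested, all 16 had the same sign, and 8 were smaller by over 1.5 times. Both higher ratios were among these 8, at 1.03 for mir-259 and 0.16 for mir-86, while mir-240 had -1.46 and mir-45 -1.22.

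**Figure D3:**
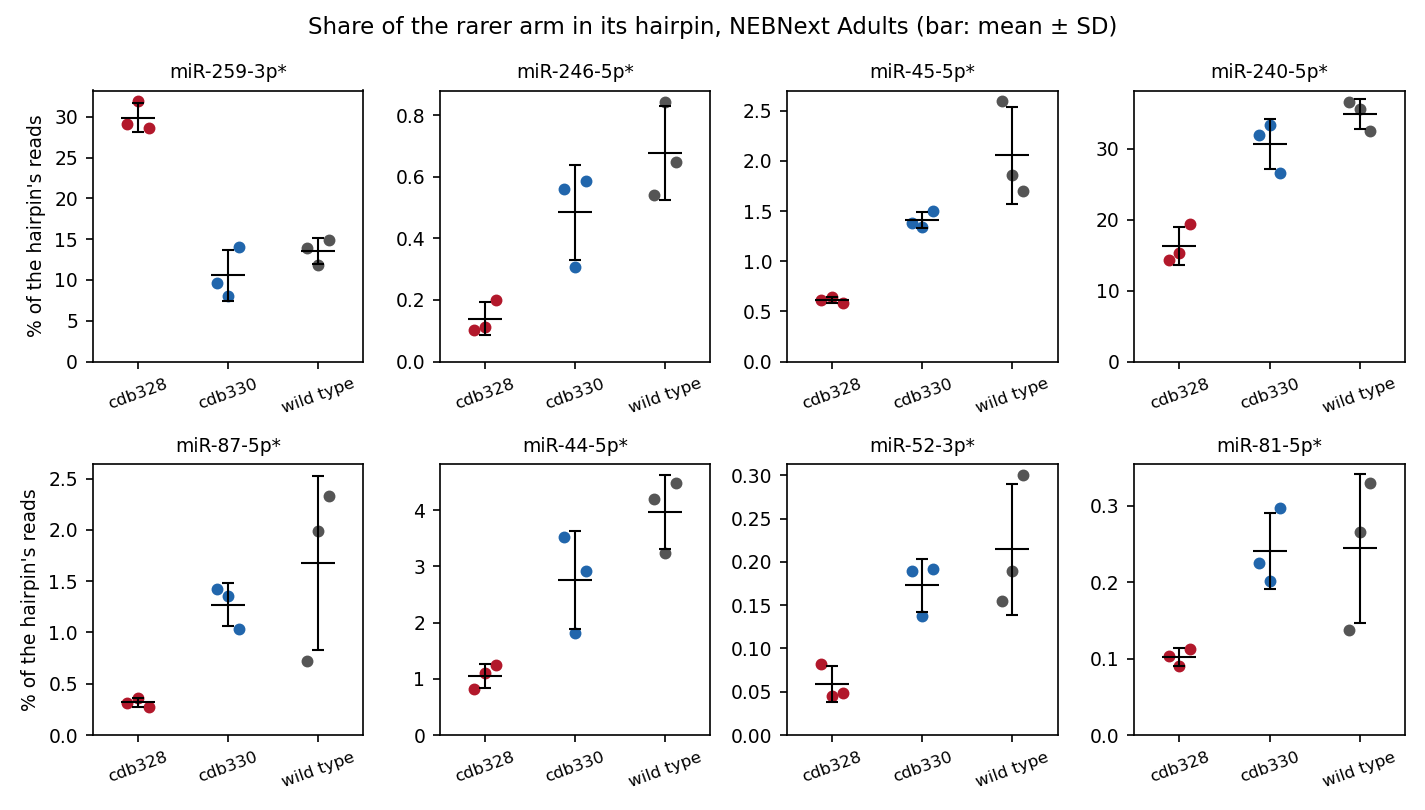
Share of the rarer arm in the reads of its hairpin (y, percent, from 0 with a range that differs between panels) for the 8 hairpins with the smallest p in the arm-ratio test, in each NEBNext Adult library of cdb328, cdb330 and wild type; points are libraries, and bars give the mean and SD (n = 3). The share of miR-259-3p* is about 30% in cdb328 and under 15% elsewhere, and the other 7 shares are lowest in cdb328.

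Hairpins that lie close together on the same strand were set against each other. Neighbours were taken as hairpins at most 10 kb apart in WBcel235, a comparison added after seeing the data; lying close does not show that hairpins share a primary transcript. The ratio of the 2 main arms differed between the mutants in 16 of 26 neighbouring pairs (61.5%, limma). Pairs of hairpins that are not neighbours were not tested, so this share says nothing particular to neighbours. Of all tested arms, 40.9% were called, and pairs within a cluster share hairpins. mir-54 and mir-55 are 71 bp apart. miR-55-3p had 0.14 ± 0.09 where miR-54-3p fell by 3.94, so that the ratio of miR-55-3p to miR-54-3p differed by a log2 of 4.07 ± 0.15 (adjusted p = 6.35e-22). miR-48-5p and miR-241-5p, from hairpins 1678 bp apart, differed by 4.05 ± 0.17. miR-2-3p (-1.09) and miR-71-5p, 7061 bp apart, differed by 3.99 ± 0.26 although both fell. miR-73-3p and miR-74-3p, 179 bp apart, differed by -2.13 ± 0.24.

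Smaller gaps within clusters were also measured. miR-51-5p rose and miR-53-5p fell (0.80 and -0.64; 1480 bp apart; ratio 1.43 ± 0.20). In the cluster of mir-229, mir-64, mir-65 and mir-66, the log2 ratio of miR-64-5p to miR-65-5p, its neighbour at 44 bp, was 0.68 ± 0.07 higher in cdb328. The 7 hairpins of the miR-35 cluster stayed close together: their main arms lay between -0.33 and 0.16, and 2 of the 6 ratios of neighbours differed, by 0.44 ± 0.13 (miR-36-3p to miR-37-3p) and -0.40 ± 0.11 (miR-39-3p to miR-40-3p).

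**Figure D4:**
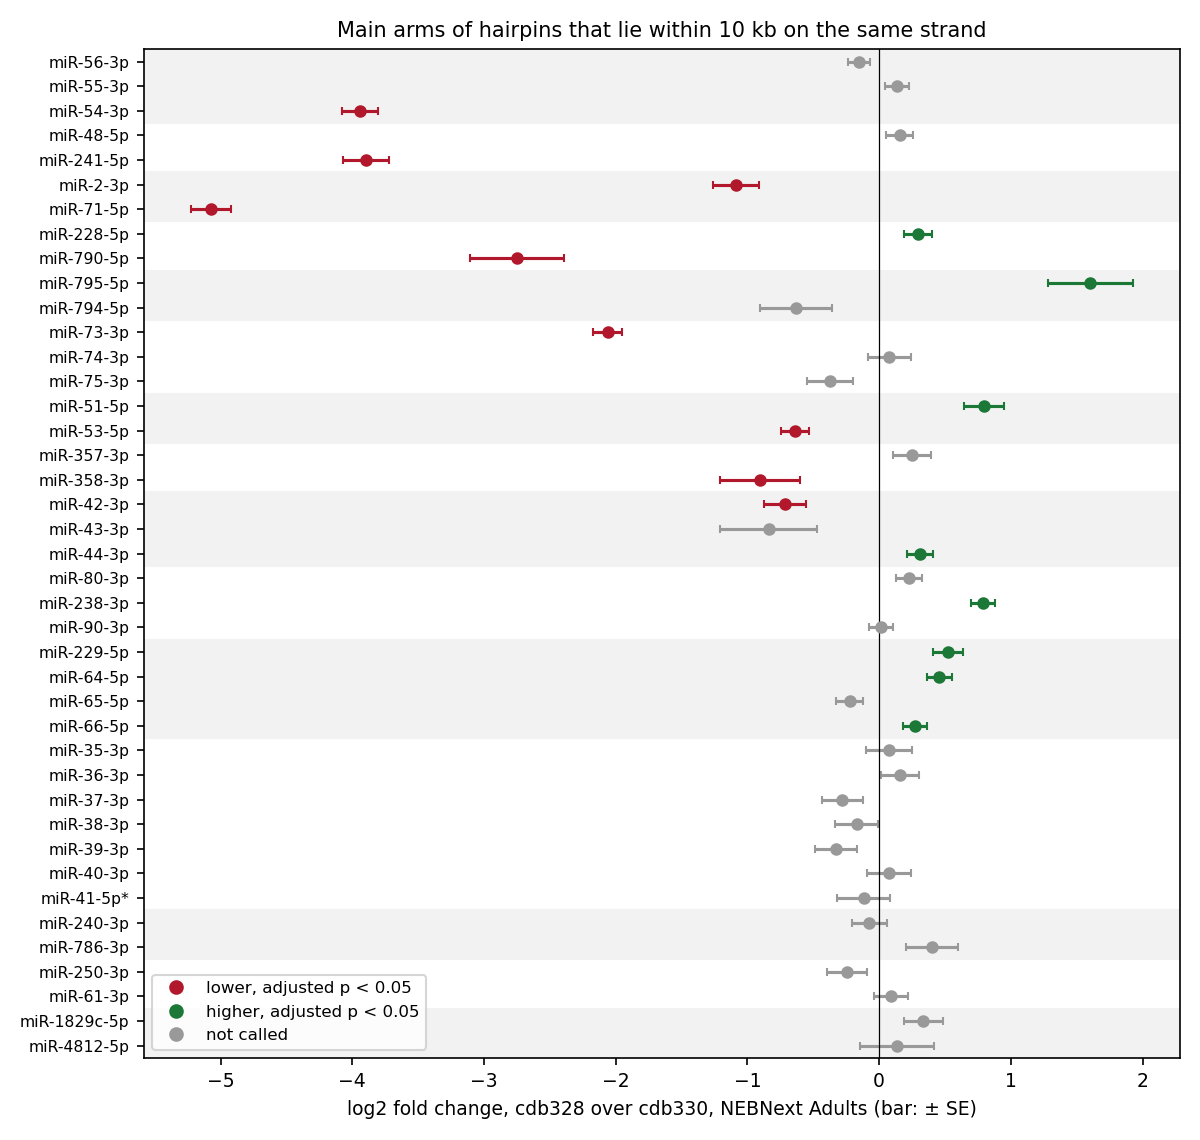
Log2 fold change of cdb328 over cdb330 (x, bars give the SE) for the main arm of each hairpin that has a neighbour within 10 kb on the same strand; shaded and white bands separate clusters, ordered by their spread, and red, green and grey mark lower, higher and uncalled arms on the TMM scale. miR-54-3p (-3.94) stands beside miR-55-3p (0.14) and miR-241-5p (-3.90) beside miR-48-5p (0.16), while the miR-35 cluster lies near 0.

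Libraries made with bias-minimized adaptors gave the same contrast a second time; the labels do not say whether they came from the same RNA. Of 191 arms tested 69 differed (36.1%; 33 higher, 17.3%, and 36 lower, 18.8%). Scaled on spike-ins, 2 arms were higher and 104 lower, and scaled on mirtrons 5 were higher and 102 lower. miR-71-5p had 1196, 1917 and 1544 CPM in cdb328 against 38793, 47830 and 42291 CPM in cdb330 there (-4.79, adjusted p = 2.38e-06). Again the groups were far apart. miR-54-3p had -3.0, miR-241-5p -4.36, miR-73-3p -2.22 and miR-248-3p -1.98. Rises of miR-254-3p (1.57), lsy-6-3p (2.09), miR-795-5p (1.53), miR-62-3p (0.66) and miR-238-3p (0.54) also passed.

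Across the 180 arms tested with both kinds of adaptor, Pearson's r of the log2 fold changes was 0.748 and Spearman's rho 0.799, a description across arms, which are not independent. Among these 180 arms, 43 were called lower with NEBNext and 34 with the bias-minimized adaptors. Of these, 32 were called in both (74.4% and 94.1%). Higher calls among the 180 numbered 33 and 32, with 19 in both (57.6% and 59.4%). Arms tested with only 1 kind of adaptor are left out of these shares. No arm was called in opposite directions. miR-51-5p (0.31, adjusted p = 0.203), miR-355-5p (0.34, adjusted p = 0.137), miR-259-3p* (0.12, adjusted p = 0.894) and miR-790-5p (-1.01, adjusted p = 0.231) did not pass with the bias-minimized adaptors, while miR-58a-3p did (0.65, adjusted p = 0.00714). The spread was wider there (biological coefficient of variation 0.598, against 0.123 in the NEBNext fit), and the CPM of 10 arms that reached over 300 CPM ranged over 15-fold within a group. miR-244-5p is such an arm: its log2 fold change of 5.52 (adjusted p = 0.0782) is not comparable with 1.27 from NEBNext.

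**Figure D5:**
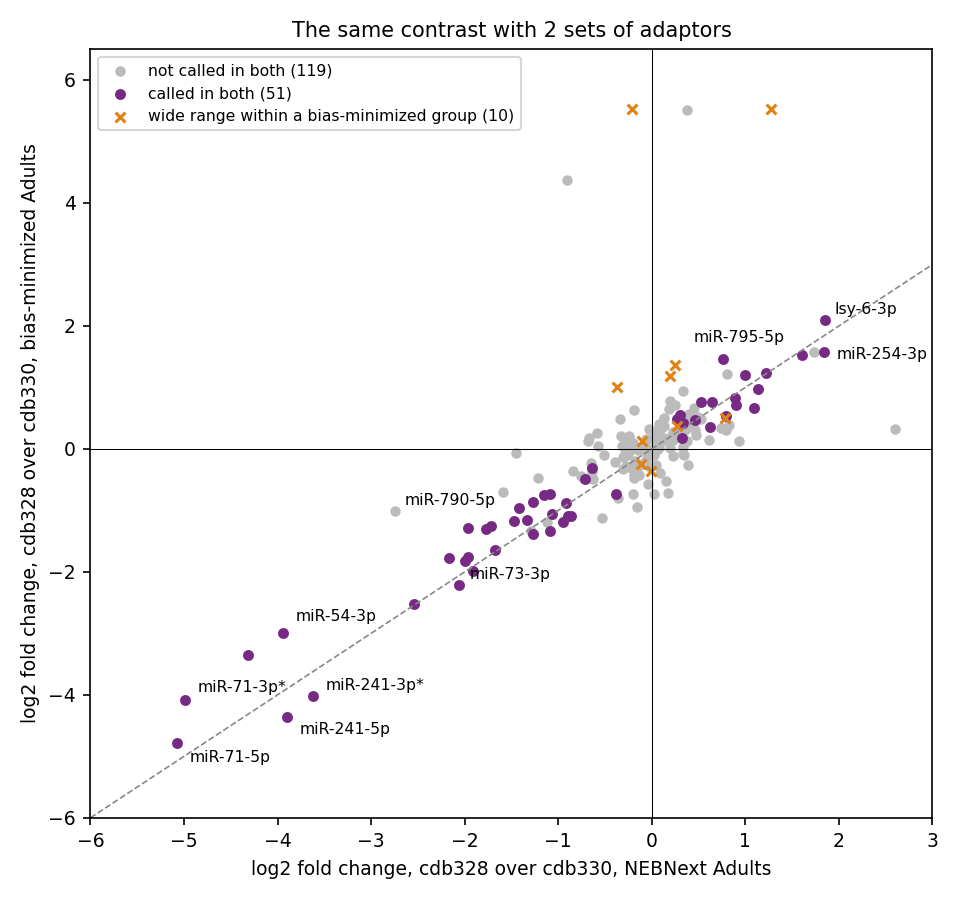
Log2 fold change of cdb328 over cdb330 in bias-minimized Adults (y) against NEBNext Adults (x) for 180 arms; the dashed line marks equal values, purple points (51) were called in both on the TMM scale, and crosses (10) are arms of wide range within a bias-minimized group. The falls of miR-71, miR-54 and miR-241 are deep in both. miR-54-3p is shallower in bias-minimized Adults (-3.0, against -3.94 in NEBNext Adults) and miR-241-5p deeper (-4.36, against -3.90). All purple points have the same sign in both.

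In L4 larvae, which share no library with the Adults, 134 of 215 arms differed between cdb328 and cdb330 (62.3%; 76 higher, 35.3%, and 58 lower, 27%). Scaled on spike-ins, which shifted log2 fold changes by a median of -0.93, 15 were higher and 141 lower. Of the arms lower in Adults 40 were also lower at L4 (78.4% of the Adult list and 69.0% of the L4 list), and of the higher arms 28 (75.7% and 36.8%). Opposite calls were made for 2 arms, miR-39-5p* (-0.91 in Adults and 1.51 at L4) and miR-77-3p (-0.32 and 0.51). The Adult call of miR-77-3p was lost with total counts (-0.22, adjusted p = 0.165), with DESeq2 or its size factors (-0.23 each), and without any of 4 libraries in turn (-0.31 to -0.27). These falls were also deep in larvae: miR-71-5p had -4.03, miR-54-3p -3.98 and miR-241-5p -4.29 at L4. A contrast of the 4 groups found 51 arms whose allele difference changed with stage (23.7%; 13 higher, 6.05%, and 38 lower, 17.7%, in Adults than at L4). Scaled on spike-ins that split was 54 higher and 14 lower, 35 and 19 with total counts, and 36 and 23 when fitted on the groups compared.

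Total miRNA was set against the spike-in RNAs, whose amounts the labels do not give. Worm miRNA reads per spike-in read were 1.87, 1.77 and 2.15 in cdb328, 2.53, 2.49 and 2.43 in cdb330 and 2.33, 2.38 and 1.96 in wild type. All 3 cdb328 libraries were below all 3 cdb330 libraries, and wild type overlapped cdb328 by this measure. Over the spike-in size factor, wild type (2706310, 2115520 and 1639750) also spanned the cdb330 libraries (2155640 to 2224110). The ratio of cdb328 to cdb330 was 0.774-fold over summed spike-in reads and 0.809-fold over the size factor. Each had an exact two-sided permutation p = 0.1 (n = 3 each), the smallest p that 3 against 3 libraries allow.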

How the data were processed

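The authors counted reads of whole-worm small RNA over mature miRNA arms and 10 plant spike-ins; the submitters' processing notes name HTSeq. Its version, the aligner, the build and the miRNA annotation do not stand in the sources used here. The deposited values were read as estimated counts (not normalized by the authors): 4.64% of NEBNext and 1.42% of bias-minimized values lay midway between whole numbers and were rounded for the count tests. Depth was 1891780 to 2835112 miRNA reads in the 18 NEBNext libraries fitted and 578859 to 2585561 in the 9 bias-minimized Adults.

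Main tests used edgeR 4.0.16 (R 4.3.3): TMM over the miRNA rows, filterByExpr (minimum count 10, minimum total 15), and glmQLFit and glmQLFTest with 1 coefficient for each group. P-values were adjusted by Benjamini-Hochberg, and 0.05 was the threshold. The L4 and Adult NEBNext libraries of cdb328, cdb330 and wild type (18) shared a fit, and the bias-minimized Adults had their own. The SE of a log2 fold change was derived from its F statistic. Arm ratios and neighbour ratios were tested with limma 3.58.1 on log2 ratios with a pseudocount of 0.5, for hairpins with a mean of at least 10 reads of each arm; the main arm is the arm with more reads over the 18 libraries. Genome positions were matched by hairpin name (137 of 138) in WBcel235, from Ensembl's annotation except for let-7, whose position came from RefSeq. The edgeR and limma tests were also run on simulated data that gave all arms the same spread. That run checks the code and not the results above.

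In 27 pairs of replicates, chi-square over its degrees of freedom was at least 19.5, so each library counted as 1 sample. Replicate numbers paired the bias-minimized mutants (correlations of deviations 0.494, 0.640 and 0.723 for equal numbers). With the block there, miR-80-3p (adjusted p = 0.0189, against 0.0530 without) and miR-37-3p (0.0407, against 0.651) passed, and miR-45-3p (0.124, against 0.0421), miR-246-5p* (0.0819, against 0.0446), miR-246-3p (0.0753, against 0.0407) and miR-74-3p (0.0822, against 0.0284) did not.

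Named arms followed a rule: among arms called, without overlap and with a mean of at least 10 CPM, the 14 largest falls and 12 largest rises, a set of well-known arms, arms called in cdb330 over wild type, the 8 leading arm ratios, the 6 leading stage differences and leading list members. miR-248-3p, miR-40-3p, miR-48-5p, miR-55-3p, miR-65-5p, miR-77-3p and both arms of mir-74 lie outside it and were named after their values were seen. Members and lists were chosen with earlier results of these data known. Alternatives were DESeq2 1.42.0, other scalings, no filter, the replicate block and leaving out each library.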

Additional observations from a re-analysis of the deposited data

Results flagged for a closer look

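The difference between cdb328 and cdb330 changed with stage for 29 of the 114 named arms, by the contrast of the 4 groups in edgeR (Adult log2 fold change minus L4 log2 fold change, adjusted p under 0.05). Over all tested arms it changed for 51 of 215 (23.7%). The named arms include the 6 with the smallest p in this contrast, so their count is not a result about them as a set. The largest block was the miR-35 family, which at L4 was higher in cdb328 and in Adults was not. The differences were -2.19 for miR-36-3p, -2.46 for miR-38-3p, -2.11 for miR-37-3p, -2.13 for miR-39-3p, -2.42 for miR-39-5p*, -2.15 for miR-35-3p and -1.94 for miR-40-3p. miR-35-3p averaged 29814 CPM in cdb328 and 6404 CPM in cdb330 at L4, and 82444 CPM in cdb328 and 78293 CPM in cdb330 in Adults. Its difference was -1.45 on the spike-in scale, and the others stayed at or below -1.24 there. These arms come from 1 cluster and are not independent. Both arms of mir-42, of the same family, had -1.07 (miR-42-3p) and -1.18 (miR-42-5p*), and neither passed on the spike-in scale.

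Among arms lower in cdb328, the fall was deeper in Adults for miR-71-5p (-1.04), miR-72-5p (-0.67), miR-72-3p* (-0.91), miR-73-3p (-0.50) and miR-231-5p* (-1.37). On the spike-in scale none of these 5 kept its call (miR-71-5p had -0.33, adjusted p = 0.342). For miR-790-5p the fall was less deep in Adults (3.21). The log2 fold change was larger in Adults than at L4 for miR-795-5p (1.72), miR-249-3p (1.72), miR-76-3p (0.77) and miR-137-3p (0.51). miR-77-5p* (1.43), miR-86-3p* (1.20) and miR-58a-5p* (0.64) had log2 fold changes of -1.41, -1.56 and -0.30 at L4, and of 0.03, -0.36 and 0.34 in Adults. miR-81-3p (0.62) and miR-237-3p* (1.42) had -0.25 and -0.94 at L4, and 0.38 and 0.48 in Adults. The remaining differences were -0.58 for miR-80-3p, -0.50 for miR-66-5p, -0.46 for miR-55-3p, -0.82 for miR-77-3p and -1.25 for miR-44-5p*. On the spike-in scale none of these 5 passed, and the first 3 had the other sign (0.13, 0.20 and 0.24).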

How the results depend on the processing

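Under the alternatives run, the count of 88 arms between the NEBNext Adult mutants lay between 79 and 108, apart from 174 with mirtron scaling and 64 of 129 hairpins with both arms summed. Leaving out 1 library gave 78 to 88. Numbers did not pair the NEBNext mutants (correlations of deviations 0.003, 0.019 and -0.025), and the replicate block gave 87 arms. The bias-minimized count of 69 became 106 on the spike-in scale, 107 with mirtron scaling and 41 of 117 with both arms summed, and 52 to 64 without 1 library; the block gave 69, of which 64 were called without it. cdb330 over wild type gave 10 to 18 without 1 library, the 10 being without the second cdb330 library. Arm ratios gave 13 to 19 hairpins and neighbour ratios 16 or 17 pairs. The cause of these changes was not tested.

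Of the 114 named arms, 42 turned sign under mirtron scaling, with miR-62-3p, which that scaling sets to 0, among the 42. Under the other alternatives run, 0 turned sign. Only arms called in either fit were counted. Sign changes of arms called in neither fit were not counted. Mirtron scaling gave 0 (by construction) for miR-62-3p, -0.091 for miR-76-3p, -0.15 for miR-259-3p*, -0.19 for miR-243-3p, -0.21 for miR-784-5p, -0.29 for miR-137-3p, -0.30 for miR-51-5p and miR-238-3p, -0.31 for miR-87-3p, -0.35 for miR-355-5p, -0.58 for miR-229-5p, -0.59 for miR-239a-5p, -0.64 for miR-64-5p, -0.71 for miR-229-3p*, -0.72 for miR-81-3p, -0.73 for miR-250-5p*, -0.74 for miR-253-3p, -0.75 for miR-58a-5p* and miR-785-3p, -0.77 for miR-45-3p and miR-246-3p, -0.78 for miR-44-3p, -0.80 for miR-228-5p, -0.83 for miR-66-5p, -0.84 for miR-357-3p, -0.85 for miR-79-3p, -0.86 for miR-80-3p, -0.87 for miR-238-5p*, -0.90 for miR-236-3p and miR-1-3p, -0.91 for miR-47-3p, -0.92 for miR-58a-3p, -0.93 for miR-36-3p, -0.94 for miR-48-5p, -0.96 for miR-55-3p, -1.0 for miR-83-5p*, -1.02 for miR-35-3p, miR-40-3p and miR-74-3p, -1.03 for miR-253-5p*, and -1.05 for miR-46-5p* and miR-77-5p*. miR-228-5p lost its call without any of 4 libraries in turn. Over the named arms and alternatives, 1541 values kept their call or their lack of one, with sign changes of uncalled arms among them. Without a change of sign, 53 lost and 70 gained a call.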
